A study of Pomatostomus ruficeps with 28 samples.

Results

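Isolated CpGs are the cytosine-phosphate-guanine (CpG) sites of the deposited methylation table that have no other site of the table within 2000 bp on either side, on scaffolds whose largest position in the table is at least 10000. The rule used positions only, no methylation value. It found 22220 isolated CpGs among the 1564780 sites of the table, or 1.54% of the 1442931 sites on scaffolds of that size, and the remaining 1420711 sites on those scaffolds are called the other sites. Isolation refers to the table: CpGs of the genome that the authors' filters removed can lie between 2 sites of it.

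The samples were blood of 28 wild chestnut-crowned babbler nestlings (Pomatostomus ruficeps), a cooperatively breeding Australian passerine, of which 19 were raised by groups (parents with helpers) and 9 by pairs (parents alone). Nestlings of groups were 14 to 20 days old and nestlings of pairs 14 to 19 days old when they were bled. Eggs were hatched in an incubator and chicks were returned to their own nest or cross-fostered, a status that was not used here. The number of carers varied naturally, so that class and other differences between nests cannot be told apart. Nestlings are named below by class and a number that carries no order. The DNA was converted enzymatically before sequencing, so that an unmethylated cytosine is read as thymine, and a methylation level is the percentage of reads over a site that kept the cytosine. The cell makeup of the blood, which in birds is dominated by nucleated red cells, was not measured. Genotypes were not used here, so that a thymine in a nestling's own sequence cannot be told apart from an unmethylated cytosine.

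In vertebrates most CpGs are methylated in most tissues, and the mark is copied to the new strand after each round of replication by the maintenance methyltransferase DNMT1. Unmethylated CpGs are found mainly in dense clusters, the CpG islands, many of which lie at the start of genes. CpGs far from their neighbours are of interest because, in mammals, sparse CpGs in late-replicating domains are known to lose methylation as cells divide. The authors' filters removed most of the sites they sequenced. Whether the isolated CpGs of the table are sparse in the genome was therefore not known. No genome annotation was used here, so that the place of these sites relative to genes was not analysed, and positions are given on the scaffolds as the authors named them.

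Isolated CpGs lay on 7249 of the 11140 scaffolds that reach position 10000 (65.1%). The median scaffold with any held 2, 2847 scaffolds held 1, and the most on any scaffold was 59. Of the 22220, 16631 had sites of the table on both sides, 5228 were the first or last site of their scaffold and 361 were its only site. The median distance to the nearest site was 3666 bp, with quartiles of 2636 and 5936 bp, against a median of 5 bp for the other sites. The most remote was VYZT01042243.1:360739, at 70147 bp from its nearest neighbour. At the edge of the rule, the 481 isolated CpGs whose neighbour lay at most 50 bp beyond the limit averaged 83.4% methylation, and the 512 other sites whose neighbour lay on the limit or less than 50 bp inside it averaged 83.3%.

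By the rule no isolated CpG has a table site 1 bp away, as the 2 cytosines of a CpG on opposite strands do, whereas 39.4% of the other sites had one, although the methods state that strands were collapsed. Counting sites 1 bp apart as 1 CpG would add 2954 sites to the isolated CpGs, 25174 in all.

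Fewer nestlings had a value at the isolated CpGs. The mean was 19.7 nestlings a site, against 21.2 at the other sites, and 25.3% of isolated CpGs had the lowest number in the table, 18, against 8.97% of the other sites. None had a value in all 28 nestlings, whereas 4541 of the other sites did. The best covered isolated CpGs, with 27 values, were 4. VYZT01007736.1:37838 averaged 92.3% ± 7.68 (SD), VYZT01044754.1:122622 81.4% ± 13.7, VYZT01015854.1:74754 80.9% ± 15.2 and VYZT01040408.1:21655 74.2% ± 14.

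The gap lay mostly in 4 nestlings. Pair nestling 3 had values at 3.38% of the isolated CpGs (750 sites) and at 52.1% of the other sites, and pair nestling 6 at 13.3% (2957 sites) and at 59.0%. Group nestling 14 had values at 47.7% of the isolated CpGs and at 89.1% of the other sites, and group nestling 7 at 60.7% and at 92.5%. In the remaining 24 nestlings the share at isolated CpGs was between 0.869 and 1.10 times the share at the other sites. Over all 28 nestlings, 70.4% ± 23.2 of the isolated CpGs and 75.8% ± 15.6 of the other sites had a value (SD, n = 28; mean difference −5.46 points, two-sided permutation test of signs, p = 0.0935, adjusted p = 0.0935 over 4 comparisons). Without these 4 nestlings the difference was 0.609 points (n = 24, permutation p = 0.529). Results below are therefore also given without them where that changes a call or a direction.

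**Figure D1:**
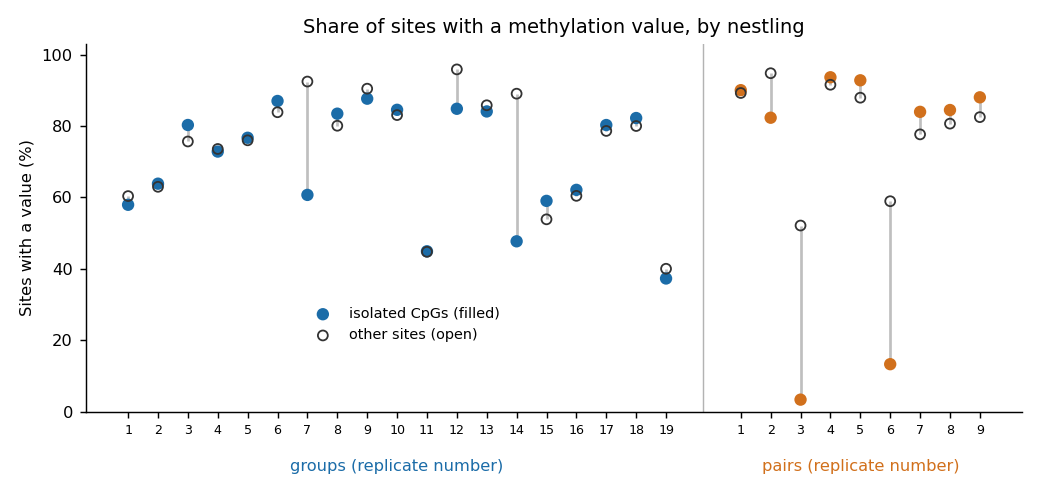
Share of sites with a methylation value in each nestling, in percent, at isolated CpGs (filled) and at the other sites (open), with groups in blue and pairs in orange; a line joins the 2 values of a nestling. Pair nestlings 3 and 6 sit at 3.38% and 13.3% of the isolated CpGs, and group nestlings 14 and 7 at 47.7% and 60.7%, far below their own open circles, while most of the others have both values close together.

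Isolated CpGs were highly methylated, as were the other sites, but a little less so. The mean of the site means was 83.1% ± 7.92 (SD over 22220 sites), against 85.2% ± 7.65 at the other sites. The quartiles of the isolated CpGs were 78.4% and 89.0%. Of the isolated CpGs 4374 (19.7%) had a mean of 90% or more, against 30.6% of the other sites, and 25.1% had a mean between 70% and 80%, against 16.5%. Sites below 50% were rare in both, 41 isolated CpGs (0.185%) and 0.269% of the other sites.

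**Figure D2:**
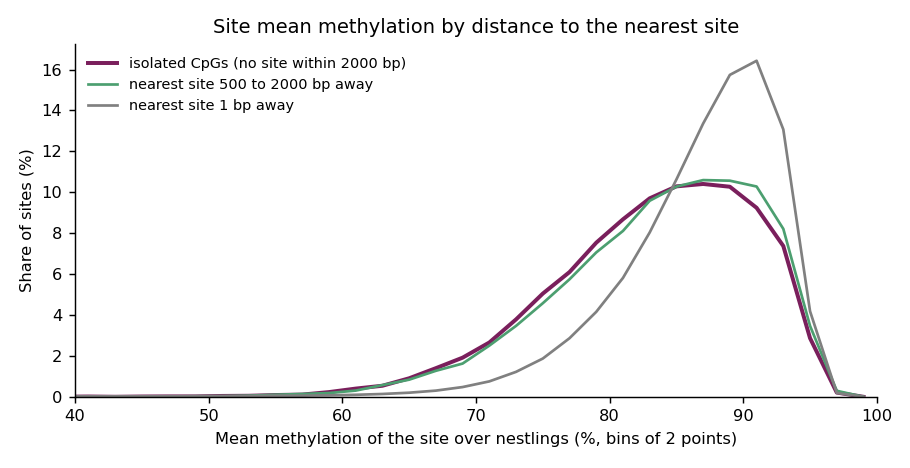
Share of sites, in percent, by mean methylation over nestlings in bins of 2 percentage points, for isolated CpGs, for sites with the nearest site 500 to 2000 bp away and for sites with the nearest site 1 bp away; the axis starts at 40% and leaves out a few sites below it. The curve of the isolated CpGs lies to the left of that of sites with a neighbour 1 bp away, whose mean was 86.6%, and close to that of sites 500 to 2000 bp away.

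The few isolated CpGs of low methylation split in 2. Of the 41 under 50%, 17 had a mean under 10%, 7 a mean between 10% and 30%, and 17 a mean between 30% and 50%. A mean under 10% was thus found at 0.0765% of the isolated CpGs, against 0.0128% of the other sites (182 sites). Sites with the nearest site 500 to 2000 bp away were closer to the isolated CpGs. From 4% to 6%, 6% to 8% and 8% to 10% lay 0.0133%, 0.0106% and 0.0293% of them. The isolated CpGs had 0.009%, 0.0225% and 0.045% in these bins. These differences were seen in the data and were not tested. The 3 isolated CpGs with the lowest means, chosen after their values were seen, were VYZT01007355.1:121901, VYZT01016027.1:84339 and VYZT01011161.1:43743, with means of 4.46%, 5.91% and 6.08%. At VYZT01007355.1:121901, 14 nestlings of groups had between 0% and 50% (median 0%) and 7 nestlings of pairs between 0% and 6.67% (median 0%). That 50% was a single nestling, and the next highest was 9.09%. A site so low stands apart from its class, since the 5th percentile of the isolated CpGs was 69.2%.

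Within every nestling the isolated CpGs were less methylated than the other sites. The level over a nestling's own isolated CpGs was between 77.4% and 86.7% in groups (median 83.5%) and between 80.2% and 85.7% in pairs (median 83.0%). At the other sites it was between 81.1% and 88.6% in groups and between 82.2% and 87.0% in pairs. The difference, isolated minus other, averaged −2.29 points ± 0.623 (SD, n = 28), was negative in 28 of 28 nestlings and ranged between −3.70 and −1.03. It exceeded the spread between nestlings (permutation test of signs, two-sided, 100000 resamples, p = 1e-05, the smallest these resamples can give; adjusted p = 2e-05 over 4 comparisons). With the nestlings of a natal group averaged, over 19 natal group codes, it was −2.22 points. The lowest level (77.4%) and the lowest difference (−3.70) were those of group nestling 19, in which no value had under 10 reads.

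The size of the difference depended on what the isolated CpGs were set against. Against other sites with the nearest site 500 to 2000 bp away (37604 sites) it was −0.477 points, lower in 26 of 28 nestlings (permutation p = 2e-05, adjusted p = 8e-05). Against other sites with no site 1 bp away it was −1.41 points, and against sites with a neighbour within 100 bp it was −2.45 points. The order by spacing was not even: sites with a neighbour 1 bp away averaged 86.6% and those with one 2 to 20 bp away 85.2%, but those with one 21 to 100 bp away 82.7%, below the 83.1% of the isolated CpGs.

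The number of reads behind a value bears on this comparison. Values at isolated CpGs rested on a median of 9 reads, with 8.0% of them on 14 or more, against 13.5% at the other sites. In 27 nestlings the deposited coverage resolved every value to whole reads when it was taken to count each methylated read 2 times and to leave out the methylated or unmethylated part where that part was below 10. Under that count a value on 5 reads can only be 100%, and a value with fewer than 5 methylated and fewer than 10 unmethylated reads is missing, so that some values of low methylation on fewer than 14 reads are absent. Others are there: on 10 to 13 reads, 3102 values at isolated CpGs were under 50%, 232 of them at 0%. At isolated CpGs all 26922 values on 5 reads were 100%, values on 7 reads averaged 85.8%, on 9 reads 81.0%, on 11 reads 78.7%, on 13 reads 76.7% and on 15 reads 75.3%. No value on 5 to 9 reads was below 55.6%. In group nestling 19, the nestling whose methylated and unmethylated reads were deposited, no value had under 10 reads, values on 10 reads averaged 78.5% and values on 15 reads 74.8%. Levels over all values were higher than levels over values with 14 reads or more, which the count leaves complete. Among such complete values of the 27 nestlings the mean also fell, from 76.0% on 14 reads to 72.5% on 18 and 68.0% on 21 or more. In group nestling 19 values on 21 or more reads averaged 69.2%. The part of the missing values in the fall with reads was not tested.

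With values on at least 14 reads only, the isolated CpGs had 74.0% ± 2.91 over nestlings and the other sites 76.8% ± 3.97 (SD, n = 28). The difference was −2.83 points ± 4.61, with 21 of 28 nestlings lower (two-sided permutation test of signs, p = 0.00247, adjusted p = 0.00247 over 3 comparisons). Without the 4 nestlings named above it was −1.48 points (n = 24, permutation p = 0.0342), and against other sites 500 to 2000 bp from their neighbour it was −0.841 points (permutation p = 0.00379). The direction was thus the same on deep values, with a wider spread between nestlings. Such values were few at the isolated CpGs of some nestlings, 50 in pair nestling 6 and 71 in group nestling 11.

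**Figure D3:**
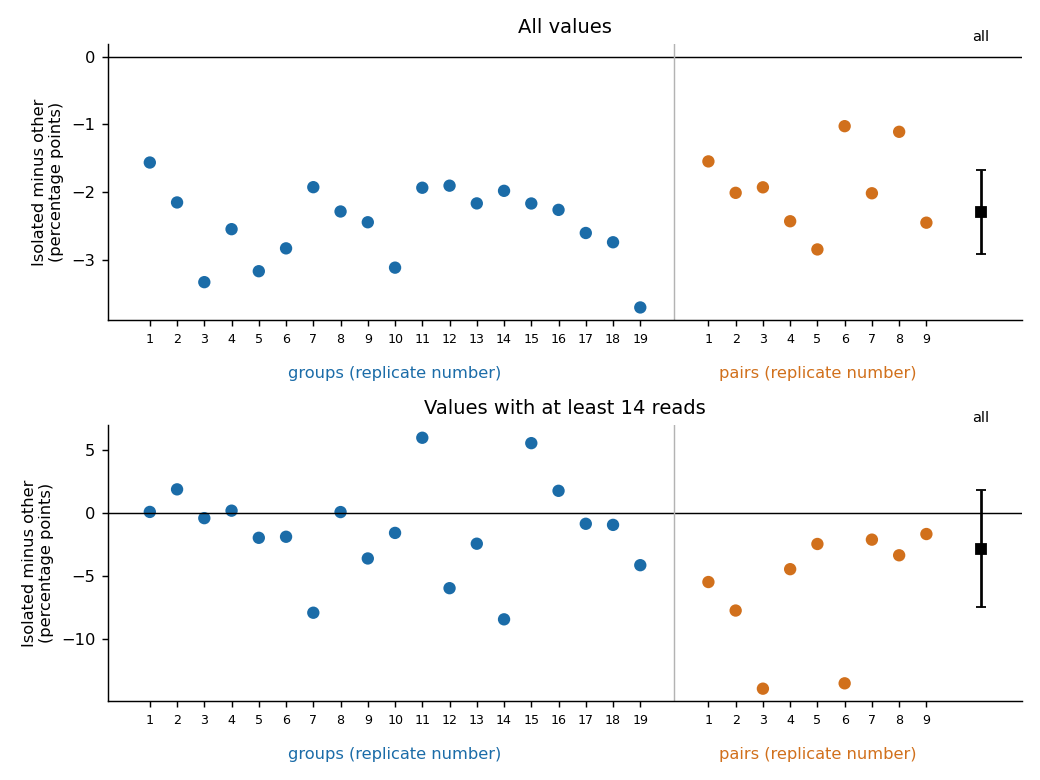
Mean methylation at isolated CpGs minus that at the other sites in each nestling, in percentage points, over all values (top) and over values with at least 14 reads (bottom), with groups in blue, pairs in orange, and the mean ± SD over 28 nestlings as a black square. All 28 points of the top panel are below 0, between −3.70 and −1.03, while the bottom panel has 21 below 0 and a mean of −2.83.

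The level also fell with distance to the nearest site among the isolated CpGs themselves. The mean of site means was 83.3% for the 14740 sites with a neighbour up to 5000 bp away, 82.8% for the 4992 with one beyond that and up to 10000 bp away, 82.5% for the 2127 with one farther off, and 81.8% for the 361 that were alone on their scaffold. Per nestling, the 2488 sites over 10000 bp from a neighbour or alone had 82.4% and the 14740 nearest ones 83.4%, a difference of −0.982 points ± 0.555 (SD, n = 28; lower in 27 of 28 nestlings; two-sided permutation test of signs, p = 1e-05). On values with at least 14 reads it was −1.90 points ± 2.10, lower in 23 of 28 nestlings (permutation p = 3e-05). This comparison was chosen after the data were seen. Reads rose along the same 4 classes, with means of 9.12, 9.17, 9.27 and 9.50 per value. Values on 14 or more reads made up 7.84%, 7.98%, 8.63% and 11.2% of them. The part of depth in the fall with distance was not tested. The 3 most remote isolated CpGs did not stand out. VYZT01042243.1:360739 had 86.7% ± 11.8 over 19 nestlings, VYZT01048631.1:235, at 57523 bp from its neighbour, had 88.5% ± 14.4 over 18, and VYZT01009766.1:6430, at 56835 bp, had 73.1% ± 13.5 over 20.

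A nearby site said much about the level of a site, and an isolated CpG's nearest neighbour said little. Across sites, the correlation of a site's mean with that of its nearest site was r = 0.756 at 1 bp, 0.567 at 2 to 20 bp, 0.277 beyond 100 and up to 500 bp and 0.145 beyond 1000 and up to 2000 bp. For the 21859 isolated CpGs with a neighbour it was 0.119, with a median absolute difference of 6.28 points, against 2.62 points at 1 bp. A nestling's deviation at a site and at the nearest one went together with r = 0.068 at 1 bp (0.238 where both values had at least 14 reads), r = 0.295 at 2 to 20 bp and r = 0.0098 beyond 2000 and up to 5000 bp, and with r = 0.307 and 0.0205 in these last 2 classes where both values had at least 14 reads. By nestling deviations the closest class was thus not the most alike, although by site means it was. Neighbours within a read's length on the same strand can share reads, and no neighbour of an isolated CpG does. Whether sites 1 bp apart are the 2 strands of a CpG was not settled. These correlations are descriptions over sites, which are not independent replicates. Of the 21859 isolated CpGs with a neighbour, 28.8% had one that was itself isolated.

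**Figure D4:**
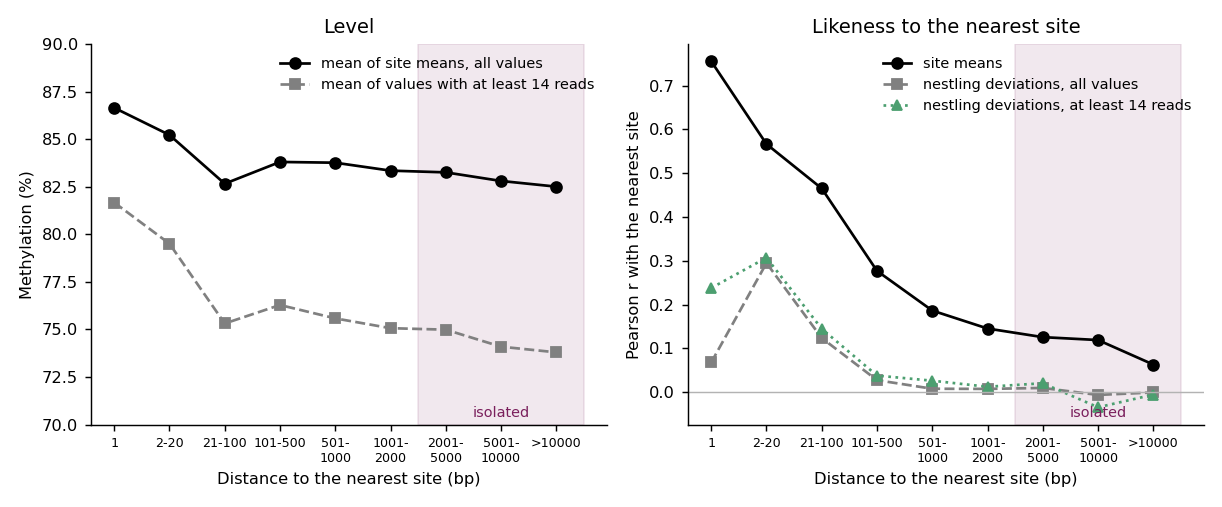
Mean methylation in percent (left, axis from 70% to 90%) and Pearson correlation with the nearest site (right) for sites grouped by distance to the nearest site, with isolated CpGs shaded. The level over all values is 86.6% at 1 bp and 82.5% beyond 10000 bp, and the correlation of site means is 0.756 at 1 bp and 0.063 beyond 10000 bp.

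The spread between nestlings at a site was wider at the isolated CpGs. The median SD over nestlings was 11.7 points, against 10.9 at the other sites. Sites of lower mean had a larger SD, with r = −0.554 over the isolated CpGs and −0.576 over the other sites. The isolated CpGs had the lower mean, and its part in their wider spread was not tested. In terms of each nestling's mean absolute deviation from the site means, the isolated CpGs had 9.67 points ± 0.441 and the other sites 9.08 ± 0.279, a difference of 0.590 points ± 0.525 (SD, n = 28), positive in 28 of 28 nestlings (two-sided permutation test of signs, p = 1e-05, adjusted p = 2e-05). Against other sites 500 to 2000 bp from a neighbour it was 0.104 points (24 of 28 nestlings, permutation p = 0.00014). With at least 14 reads, at the 1521 isolated CpGs with 5 or more such values, it was 0.828 points against all other sites (25 of 28 nestlings, permutation p = 2e-05) and −0.110 points against those 500 to 2000 bp from a neighbour (permutation p = 0.405). A wider spread than at sites of intermediate spacing was thus not seen on deep values.

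Read counting alone gives part of this spread, which could be sized only at the 1521 isolated CpGs with at least 5 values on 14 or more reads. With reads taken as independent molecules, the variance between nestlings was 1.26 times the binomial variance of the reads, against 1.39 times at the other sites and 1.31 times at those 500 to 2000 bp from a neighbour. The authors' filter on variation left out sites with little variance, which raises such ratios. The lowest and the highest value of an isolated CpG were 38.5 points apart in the median, 85.9% of the isolated CpGs had no value under 50%, and 93.6% had a value of 100% in at least 1 nestling.

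Sites that went from near 0% to near 100% were few. A value of at most 20% and another of at least 80% were found at 250 isolated CpGs (1.13%), against 1.56% of the other sites, and 206 (0.927%) had an SD over 20 points, against 1.49%. The 3 largest SDs, chosen after their values were seen, were 35.4, 35.0 and 34.5 points. At VYZT01008957.1:135943, 12 nestlings of groups had 0% to 100% (median 80%), 2 of them at 0%, and 6 nestlings of pairs had 0% to 100% (median 68.1%), 1 of them at 0%. The nestlings at 0% had 10, 16 and 10 reads, and low values were found in both classes. VYZT01004729.1:25139 and VYZT01050748.1:71713 had the same kind of pattern, with 3 nestlings at 0% each and medians of 86.6% and 84.5% in groups against 70.3% and 65.3% in pairs. Differences in sequence between nestlings cannot be told apart from differences in methylation at such sites.

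At the nestling level, groups and pairs did not differ in methylation at the isolated CpGs beyond the spread between nestlings. The mean deviation from the site means was 0.267 points ± 1.68 in groups (n = 19; lowest −3.36, median 0.345, highest 3.24) and 0.744 ± 2.82 in pairs (n = 9; lowest −2.40, median −0.229, highest 6.15), or −0.477 points between the classes (permutation test, two-sided, p = 0.582, adjusted p = 0.864 over 5 comparisons). The highest 2 values of the pairs, 6.15 and 4.33 points, were pair nestlings 6 and 3, which had few values here. The lowest value of the groups, −3.36 points, was group nestling 19, in which no value had under 10 reads. Without the 4 nestlings the difference was 0.821 points, higher in groups (permutation p = 0.279), and as a mean over each nestling's own sites it was 0.262 points (permutation p = 0.761). On values with at least 14 reads it was −0.335 points (permutation p = 0.608). The classes overlapped throughout.

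Relative to the other sites of the same nestling, the isolated CpGs deviated by −0.174 points ± 0.856 in groups (n = 19) and by 1.14 ± 2.01 in pairs (n = 9), or −1.31 points between the classes (permutation test, two-sided, p = 0.0180, adjusted p = 0.0898 over 5 comparisons). It did not pass an adjusted p of 0.05. It passed without pair nestling 5 (−1.54 points, adjusted p = 0.0440) and without group nestling 14 (−1.41 points, adjusted p = 0.0341). It moved to −0.884 points without pair nestling 6 (adjusted p = 0.344) and to −0.574 points without the 4 nestlings (adjusted p = 0.0734), and it was −0.495 points on values with at least 14 reads (permutation p = 0.307). With natal groups as units, 12 of groups and 6 of pairs, it was −1.51 points (permutation p = 0.00943, adjusted p = 0.0471). The spread at isolated CpGs was 9.57 points ± 0.215 in groups and 9.90 ± 0.682 in pairs, a difference of −0.335 points (permutation p = 0.0516, adjusted p = 0.129), which was −0.0222 points without the 4 nestlings. Mean reads per value were 9.13 ± 1.17 in groups and 8.96 ± 0.781 in pairs (difference 0.175, permutation p = 0.691), and 70.4% ± 15.8 of the isolated CpGs had a value in groups against 70.2% ± 35.4 in pairs (permutation p = 0.986). Without the 4 nestlings that share was 72.3% ± 15.4 in groups and 87.9% ± 4.47 in pairs (difference −15.6 points, permutation p = 0.0143, adjusted p = 0.0713). Over all nestlings, 74.1% ± 16.1 of the other sites had a value in groups and 79.5% ± 14.7 in pairs. The classes were not compared at the other sites without the 4 nestlings, so whether this difference is particular to isolated CpGs was not tested. In the remaining 24 nestlings the share at isolated CpGs was 0.869 to 1.10 times that at the other sites.

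Site by site, no isolated CpG was called for carers. A beta regression with terms for carers and age was fitted to each of the 1564780 sites of the table. Calls needed a Benjamini-Hochberg adjusted p, over the whole table, no higher than 0.01 and predicted means at least 25 points apart. This called 24 sites of the table, or 0.00153%, all higher in groups, and 0 of the 22220 isolated CpGs. At an unadjusted p under 0.05 there were 2009 isolated CpGs (9.04%), against 8.48% of the whole table. Such shares are read against the table only, since the Wald test gives too many small p-values at these sample sizes. A likelihood ratio test of the same model and limma on logit values called 0 sites of the table each, with 7.76% and 4.32% of the isolated CpGs at an unadjusted p under 0.05. The predicted difference was positive at 53.8% of the isolated CpGs, with a median of 0.53 points, and at 56.7% of all sites, with a median of 0.74. Differences of 25 points or more were predicted at 5 isolated CpGs (0.0225%), against 0.0277% of all sites.

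Without the limit on the size of the difference, 21 isolated CpGs passed the adjusted p, 15 of them higher in groups, which is 0.0945% of them against 0.0779% of the table. Those with the smallest p in each direction had predicted differences of at most 21.8 points. At VYZT01022957.1:348774, 2567 bp from its neighbour, nestlings of groups had 66.7% to 90% (median 83.3%, 13 nestlings) and nestlings of pairs 50% to 62.5% (median 58.6%, 6 nestlings). The classes did not overlap. The predicted difference was 20.5 points, with a carer term of 0.95 ± 0.17 (SE, logit scale) and an adjusted p of 0.000124 by the Wald test, 0.128 by the likelihood ratio test and 0.996 by limma. The values rested on 6 to 14 reads, with a median of 7 in groups and 10 in pairs. At isolated CpGs no value on 6 reads was below 83.3%, and none on 7 reads was below 71.4%. Under the read count given above, group values on 6 or 7 reads thus could not fall to the highest pair value, 62.5%. The part of this in the lack of overlap was not tested.

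At VYZT01054859.1:7376 nestlings of groups had 71.4% to 100% (median 100%) and nestlings of pairs 66.7% to 85.7% (median 70.3%), and at VYZT01025163.1:7802 groups had 80% to 100% (median 88.6%) and pairs 54.5% to 80% (median 71.4%). The predicted differences were 20.5 and 21.8 points. In the other direction, VYZT01020421.1:32660 had 72.7% to 90% in groups (median 83.3%) and 85.7% to 100% in pairs (median 100%). VYZT01000030.1:836 had 66.7% to 87.5% in groups (median 80.8%) and 80% to 100% in pairs (median 100%), with 5 of the 6 pairs at 100%. VYZT01063237.1:95336 had 61.5% to 88.9% in groups (median 75%) and 81.8% to 100% in pairs (median 100%). Their predicted differences were −14.4, −17.0 and −18.7 points. At these 3 sites the pairs had a median of 5.5 to 6 reads and the groups 8.5 to 10, and a value on 5 reads can only be 100%; the part of this in the difference was not tested.

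Age did not move with the overall level at isolated CpGs. Over 28 nestlings aged 14 to 20 days, age and the mean deviation had r = −0.045 (permutation p = 0.819) and rho = −0.112 (p = 0.570), with r = −0.026 without the 2 nestlings farthest from the median age, 0.054 within groups and −0.175 within pairs. Age and the spread had r = 0.048 (permutation p = 0.812) and rho = 0.228 (p = 0.242), and age and reads r = −0.087 (permutation p = 0.658) and rho = −0.016 (p = 0.936). None of the 3 passed the adjustment over the 5 relations tested (adjusted p = 0.819 each).

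Single isolated CpGs were called for age. The same fit called 383 sites of the table for age, or 0.0245%, of which 102 (0.00652%) were higher and 281 (0.018%) lower in older nestlings. Of the isolated CpGs 7 were called (0.0315%), 1 higher and 6 lower in older nestlings. The share was near that of the table. At an unadjusted p under 0.05 there were 1928 isolated CpGs (8.68%), against 8.1% of the table. The likelihood ratio test and limma called 0 sites each, with 7.49% and 4.63% of the isolated CpGs at an unadjusted p under 0.05, so that the calls rest on the Wald test. The predicted change over the age range was positive at 48.1% of the isolated CpGs and at 51.5% of all sites.

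The number of calls moved with the fit, among the isolated CpGs as in the table. With the code of the natal group as a random intercept, 4 isolated CpGs were called for carers (0.0181% of them, against 0.0215% of the table). For age 47 were called (0.213%, against 0.146% of the table). With 1 nestling per natal group there were 5 (0.0225%, against 0.0121%) and 45 (0.203%, against 0.113%). In both fits the share called for age was above that of the table, a difference that was not tested. Both rest on Wald tests, which give too many small p-values here. Their larger counts cannot be read as more true differences. With values limited to 0.001 from 0% and 100% of methylation there were 1 (0.0045%, against 0.00486%) and 9 (0.0405%, against 0.0283%). A coverage of at least 20 left 5 isolated CpGs and gave 0 (0% of the table) and 0 (0.0147% of the table). An adjusted p of 0.05 gave 0 (0%, against 0.00396%) and 28 (0.126%, against 0.0856%). A limit of 10 points gave 21 (0.0945%, against 0.0736%) and 9 (0.0405%, against 0.0403%). No limit on size gave 21 (0.0945%, against 0.0779%) and 9 (0.0405%, against 0.0404%). Without group nestling 19 there were 0 (0%, against 0.00153%) and 8 (0.0360%, against 0.0257%). Without pair nestling 8 there were 1 (0.0045%, against 0.00249%) and 10 (0.0450%, against 0.0318%). Without the 4 nestlings of low presence there were 2 (0.0090%, against 0.00716%) and 13 (0.0585%, against 0.0549%).

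The calls came from an age term over all nestlings with a value, 18 to 22 at the called sites. Means of older and younger nestlings are given as a description, with 4 to 7 older nestlings at each site. At VYZT01058755.1:233647 the 5 nestlings of 17 days or older averaged 79.3% ± 12.2 and the 10 of 15 days or younger 96.5% ± 5.84. The predicted change between 14 and 20 days was −36.7 points, with an age term of −0.44 ± 0.08 per day (SE, logit scale) and an adjusted p of 0.000554 by the Wald test, 0.211 by the likelihood ratio test and 0.968 by limma. The oldest nestlings with a value at this site were 19 days old, so that the predicted change reaches beyond the ages observed there. Changes were predicted between 14 and 20 days at every site, whichever nestlings had a value. At VYZT01001387.1:82768 the means were 80.6% ± 11.2 (7 nestlings) and 93.5% ± 11.6 (7 nestlings), at VYZT01040038.1:61742 69.2% ± 11.8 (4) and 88.5% ± 8.17 (10), and at VYZT01024176.1:9473 78.3% ± 8.73 (7) and 94.6% ± 7.79 (10). At VYZT01004765.1:45718 the 5 older nestlings averaged 86.9% ± 14.5 and all 9 younger ones were at 100%. The older ones had 6 to 12 reads, and 4 of the younger ones had 5 reads, which can only give 100%. At VYZT01040038.1:61742 the older nestlings had a median of 14 reads and the younger ones 6.5, with 2 of them at 5. The part of reads in these calls was not tested. VYZT01032647.1:56935 had the largest predicted change, −53.5 points, with 62.2% ± 5.44 (4) and 85.7% ± 9.21 (10). The one called site higher in older nestlings, VYZT01002640.1:28115, had 91.1% ± 9.78 (7) and 69.4% ± 9.37 (11), a predicted change of 30.1 points.

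Outside the calls, VYZT01043139.1:31594 had the smallest p for age of all isolated CpGs (adjusted p = 0.00042 by the Wald test and 0.968 by limma) and missed the call with a predicted change of −24.6 points. VYZT01035930.1:117043 and VYZT01051440.1:65284 followed among those higher in older nestlings, with predicted changes of 23.2 and 33.2 points and adjusted p of 0.0209 and 0.0316 by the Wald test (0.968 by limma for both).

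Depth moved with the level of the isolated CpGs. Mean reads per value at isolated CpGs were between 7.27 and 12 in groups (median 9.09) and between 7.39 and 9.87 in pairs (median 9.01). Nestlings with more reads had lower levels: the mean deviation and the reads had r = −0.787 (permutation p = 1e-05, the smallest 100000 resamples can give; adjusted p = 5e-05 over 5 relations) and rho = −0.791 (p = 1e-05). Within groups r was −0.896 and within pairs −0.792 (n = 9, permutation p = 0.0114), and without the 2 nestlings farthest from the median reads it was −0.734. Group nestling 19, with no value under 10 reads, had the most reads per value (12) and the lowest deviation (−3.36). Without that nestling r was −0.757. On values with at least 14 reads the mean reads of a nestling lay only between 15.2 and 17.3. Mean deviation and reads there had r = 0.216 (permutation p = 0.263) and rho = −0.039 (p = 0.845). Without the 4 nestlings r was −0.299 on such values (permutation p = 0.158). So narrow a range of reads cannot show whether the relation over all values holds among deep ones. Reads and spread had r = −0.219 (permutation p = 0.251) and rho = −0.213 (p = 0.273). No correlation over nestlings was calculated at the other sites. There, group nestling 11, with the fewest reads per value (7.27), deviated by 3.15 points. Group nestling 7, with the most (13.5), deviated by −1.90 points. The relation of reads and level is thus not shown to be particular to isolated CpGs.

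**Figure D5:**
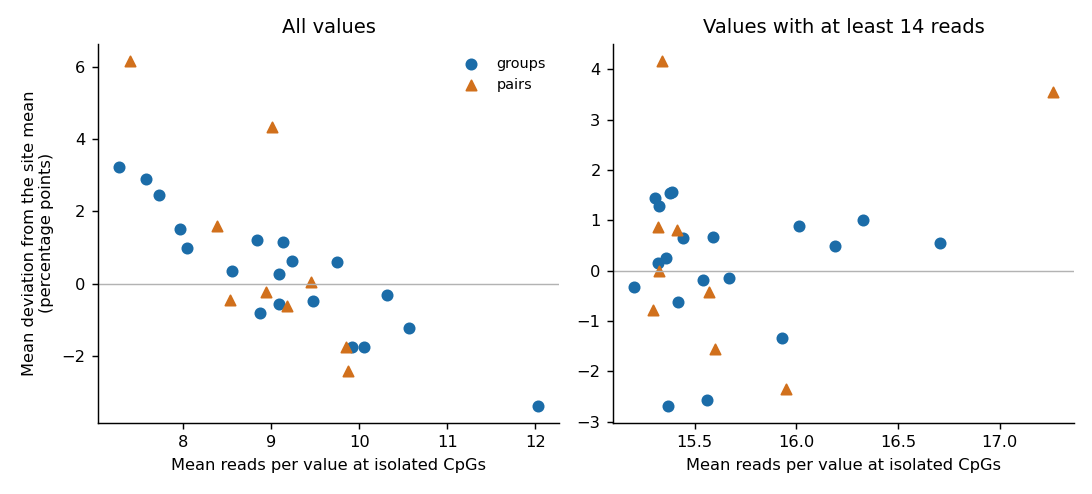
Mean deviation from the site means at isolated CpGs, in percentage points, against mean reads per value in each nestling, over all values (left) and over values with at least 14 reads (right), with groups as blue circles and pairs as orange triangles. The left panel falls with r = −0.787 over 28 nestlings, and the right panel has r = 0.216 over mean reads of only 15.2 to 17.3.

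The same relation held from site to site. The 5593 isolated CpGs with up to 8.32 reads per value averaged 88.9% methylation with a median SD of 10.5 points, and the 5543 with 9.77 or more averaged 75.7% with a median SD of 12.7 points. Over the 22220 sites reads and level had r = −0.659, against −0.517 over the other sites, a description only, since both measures come from the same reads.

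Isolated CpGs also had somewhat fewer reads per value, 9.08 ± 1.05, against 9.69 ± 1.80 at the other sites (difference −0.619 ± 1.19, SD, n = 28; two-sided permutation test of signs, p = 0.00460, adjusted p = 0.00613). Only 16 of 28 nestlings had the lower value at isolated CpGs. Without the 4 nestlings the difference was −0.238 reads (permutation p = 0.0702), and against other sites 500 to 2000 bp from a neighbour it was −0.0204 reads (permutation p = 0.724). In 3 of those 4 nestlings between 37.9% and 45.5% of the values at the other sites rested on 14 or more reads, against 1.22% to 36.8% in the remaining 24.

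Deviations at the isolated CpGs correlated slightly below 0 between nestlings, with or without a shared natal group code, a comparison that was not tested. Over the 12 pairs of nestlings with the same code, the mean correlation of their deviations was r = −0.045, with values between −0.078 and −0.0027, and over the 366 pairs with different codes it was −0.053, with values between −0.126 and 0.024. Deviations from a mean of few values correlate slightly below 0 by construction, so that these values show no relation. The code is that of the natal group, which for cross-fostered nestlings is not the nest in which they were raised.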

How the data were processed

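Per the labels and the methods, blood DNA was prepared with an enzymatic methyl-seq kit and sequenced on a NovaSeq. The authors trimmed reads with HTStream, mapped them to the chestnut-crowned babbler genome and called methylation with Bismark, collapsing strands. They left out values under 10 reads of coverage, the most covered sites, sites not found in most nestlings of both classes and sites of little variation. The deposited percent values are methylated over all reads, not normalized between nestlings. The deposited coverage (whole-number counts) was read as described in the report, within a tolerance of 1e-06, and it resolved 100% of the values of 27 nestlings. With coverage shuffled it resolved 13.7% to 28.1% of values below 100%. Methylated and unmethylated counts were deposited for 1 nestling. Depth limits the precision, with 5 reads behind the thinnest values. A further 7 columns were not used.

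Isolated CpGs were found from the 1564780 positions with Python 3.11.15 (numpy 2.4.6, scipy 1.17.1, numba 0.67.0). Each site of the table was fitted by a beta regression (logit link, maximum likelihood) with terms for carers and age, after shrinking each proportion y among n as (y(n−1)+0.5)/n, Wald tests and Benjamini-Hochberg adjustment over all sites. The methods also used brood as a random effect and cross-fostering as a covariate, which were not used; the natal group code (19 codes, 1 in both classes) was tried as a random intercept. Alternatives included likelihood ratio tests and limma 3.58.1 (R 4.3.3). The code was tested on simulated data, where the Wald test gave too many small p-values at unchanged sites and called a few of them. Such p-values and calls were more frequent with the random intercept. Nestling values were compared with two-sided permutation tests (100000 resamples, exact where fewer arrangements exist) and adjusted within families. Nothing in the labels gives sequencing runs or dates, and p-values measure the spread between these nestlings, some of which share a natal group.

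Sites named were the 3 isolated CpGs with the smallest p for carers and for age in each direction. The rule also asked for sites with values in all 28 nestlings, of which there were 0; the sites named in their place, and the called sites, were chosen after their values were seen. The isolated CpGs and the tests were chosen with earlier results of these data known. Comparisons of presence, of remote isolated CpGs, and without the 4 nestlings were added after seeing the data.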

Additional observations from a re-analysis of the deposited data

Results flagged for a closer look

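Among 26 sets of 4 to 10 nestlings looked at, 4 held 1 nestling far from the others, and the limit used flags about 1 set in 20 by chance where values spread evenly around a mean, which methylation values at the ceiling of 100% do not. In pairs, the mean reads per value at isolated CpGs minus that at the other sites was −4.30 in pair nestling 3, with the next lowest at −1.99. This nestling had values at 3.38% of the isolated CpGs. At VYZT01000030.1:836, 1 nestling of pairs had 80% and the other 5 had 100%. At VYZT01058755.1:233647 the lowest nestling of pairs had 58.3% and the next 87.5%. At VYZT01004765.1:45718, 1 nestling of pairs had 66.7% and the other 5 had 100%.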

How the results depend on the processing

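No paired analysis was possible because the labels number no replicates that would match nestlings of groups with nestlings of pairs. Isolated CpGs and other sites were compared within each nestling. The lower level and the wider spread at isolated CpGs kept their direction and call without each nestling in turn (−2.34 to −2.24 points and 0.524 to 0.606 points), and the level did so under every alternative run. The spread was −0.110 points on values with at least 14 reads against sites 500 to 2000 bp from a neighbour. The difference in reads was −0.0204 against those sites, 0.0859 against them on such values (adjusted p = 0.00568) and −0.238 without the 4 nestlings. The difference in presence was 0.609 points without them.

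The carer difference in level was 0.262 points over each nestling's own sites, 0.821 without the 4 nestlings, 0.580 without them on at least 14 reads, and −0.854 to 0.199 without each nestling in turn. Relative to the other sites it was −1.51 points with natal group means, 0.222 without the 4 nestlings on at least 14 reads, and −1.54 to −0.884 without each nestling in turn. The carer difference in spread was 0.164 points without the 4 nestlings on at least 14 reads. In reads it was −0.0416 on at least 14 reads, −0.146 without the 4 nestlings and −0.0203 to 0.289 without each nestling in turn. In presence it was −0.0440 points with isolation within 1000 bp, −15.6 without the 4 nestlings and −8.18 to 3.11 without each nestling in turn. For age, r was 0.0298 with level over own sites, −0.150 with spread over natal group means, and 0.0418 with reads without the 4 nestlings on at least 14 reads. For reads and level, r was 0.216 on at least 14 reads, 0.155 on such values with sites 1 bp apart taken as 1 CpG, and −0.299 on such values without the 4 nestlings. For reads and spread it was 0.145 on at least 14 reads and 0.272 on those without the 4 nestlings.

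Brackets give the share of the isolated CpGs and that of the table. Calls for carers numbered 4 with a random intercept for the natal code (0.0181% and 0.0215%), where 22056 isolated CpGs could be fitted. There were 5 with 1 nestling per natal group (0.0225% and 0.0121%), 1 with values kept 0.001 from both ends and 1 without pair nestling 8. Calls numbered 2 without the 4 nestlings (0.0090% and 0.00716%) and 21 at 10 points (0.0945% and 0.0736%) or with no limit on size. With isolation within 1000 bp, 1 of 38967 sites was called. Calls for age numbered 47 with the random intercept (0.213% and 0.146%) and 45 with 1 nestling per natal group (0.203% and 0.113%). They numbered 0 by the likelihood ratio test and by limma, and 0 at a coverage of at least 20, where 5 isolated CpGs were left. There were 13 without the 4 nestlings (0.0585% and 0.0549%) and 28 at an adjusted p of 0.05 (0.126% and 0.0856%). With isolation within 1000 bp and 5000 bp, 11 of 38967 and 2 of 7480 sites were called. That is 0.0282% and 0.0267% of those sites, near the 0.0245% of the table. Site fits left out only group nestling 19 and pair nestling 8 singly. Sites with values in all 28 nestlings gave no value, as there were 0. The causes of these changes were not tested.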
